A study of Mus musculus with 6 samples.

Results

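The MS4A genes encode small proteins that cross the cell membrane several times, and 8 of them are described here in mouse macrophages treated with oxaliplatin with or without fucoidan. The members are Ms4a14, Ms4a7, Ms4a4a, Ms4a4c, Ms4a4b, Ms4a6c, Ms4a6b and Ms4a6d, taken by gene name as 8 rows of a table of 55401 genes. They were chosen with the expression values of these same libraries in view, so their levels and differences are given as a description, and the calls of a fit over all genes are counted for them without support being drawn from the count. The choice had no numerical limit: the lowest member, Ms4a4b, averaged 0.181 FPKM in the L-OHP group, while Ms4a4d, a family gene that is no member, averaged 0.401.

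All cells were bone marrow-derived macrophages (BMDM), grown from mouse tibia and femur marrow for 7 days in medium that held 10% conditioned medium of L929 fibroblasts. The group L-OHP (3 libraries) received 5 µM oxaliplatin, a platinum drug that cross-links DNA, for 12 h. The group L-OHP+FUC (3 libraries) received 250 µg/ml fucoidan, a sulfated polysaccharide of brown algae, for 12 h before the same 12 h with 5 µM L-OHP. Both groups therefore carry the drug, and untreated or fucoidan-only cells were not analysed here. The labels give no strain, age or sex of the mice, and do not say whether the 3 libraries of a group came from separate mice or cultures, so the spread between libraries may be technical. Total RNA was sequenced after removal of ribosomal RNA, and levels are in FPKM, fragment numbers scaled to transcript length and library size, so that levels of different genes are compared per length.

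The best-known members of the MS4A family are the B-cell antigen CD20, encoded by Ms4a1, and the beta chain of the high-affinity IgE receptor of mast cells, encoded by Ms4a2. Others act beside receptors of myeloid cells and T cells: MS4A4A binds the beta-glucan receptor dectin-1 in macrophages, and variants of the human MS4A locus are associated with the amount of soluble TREM2 and with Alzheimer's disease. Ms4a7 is a common marker of tissue macrophages, and Ms4a4a is known to be induced in alternatively activated macrophages and by glucocorticoids.

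The libraries carried the genes of macrophages: all 8 macrophage markers passed the expression filter, and Adgre1, which encodes F4/80, lay between 616 and 835 FPKM. The summed level of the macrophage list was 12400 to 17900 FPKM in L-OHP and 13300 to 14300 in L-OHP+FUC. Most of it was Lyz2, at 10000 to 15180 FPKM in L-OHP and 10590 to 11660 in L-OHP+FUC. Within the list Csf1r was called higher (log2 difference 0.47), Mertk and Fcgr1 were called lower (-0.74 and -0.69), and 5 were not called. That is 37.5% called, beside 27.0% over all tested genes. The T cell genes Cd3d, Cd3e, Cd3g and Cd2 were listed at 0 in all 6 libraries, as were Fcer1a and the mast cell proteases Cma1, Tpsab1 and Tpsb2, the neutrophil genes Ly6g and Ctsg, and the dendritic cell gene Flt3. The T cell list summed to 3.93 to 5.79 FPKM in L-OHP and 2.36 to 2.76 in L-OHP+FUC, of which Cd4 was most. The B cell list summed to 17.4 to 26.1 and 10.6 to 13.7 FPKM, nearly all of it Ighm. The summed ranges were 0.119 to 0.365 and 0.164 to 0.468 for the mast cell and basophil list, 3.70 to 4.26 and 5.34 to 6.24 for the neutrophil and granulocyte precursor list, 0.301 to 0.514 and 0.194 to 0.369 for the dendritic cell list, and 4.84 to 11.8 and 7.09 to 7.52 for the fibroblast list. The sums of the B cell, T cell and neutrophil lists thus did not overlap between the groups, but each was carried mostly by 1 gene. These were Ighm, Cd4 and S100a8, the last at 2.41 to 2.89 FPKM in L-OHP and 3.72 to 4.71 in L-OHP+FUC. Other markers went against the sum of their list. Cd79a averaged 0.354 FPKM in L-OHP and 0.581 in L-OHP+FUC, and Lck 0.207 and 0.375, while Cd79b averaged 0.867 and 0.317. The part of these lists in the members' differences was not tested. In bulk RNA, fewer cells of a type and less RNA per cell cannot be told apart.

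The 8 members lie in 1 block of 304 kb on chromosome 19 (GRCm38). From the Ms4a14 end, the starts of Ms4a7, Ms4a4a, Ms4a4c, Ms4a4b, Ms4a6c, Ms4a6b and Ms4a6d follow at 19.8, 74.3, 104, 142, 168, 215 and 285 kb. Ms4a14, Ms4a7 and Ms4a6d are on the minus strand and the other 5 on the plus strand. Within the block, 2 sets of close copies stand out by sequence. The coding sequences of Ms4a4c and Ms4a4b were identical at 91.7% of aligned bases. Those of Ms4a6c and Ms4a6b were identical at 85.4%, of Ms4a6b and Ms4a6d at 81.2% and of Ms4a6c and Ms4a6d at 79.0%. Ms4a4a was less close to Ms4a4c (68.2%) and Ms4a4b (65.7%), and every other pair lay between 56.5 and 61.9%. Ms4a14 differed from the rest in length, with 3696 coding bases against 651 to 801 in the other 7.

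**Figure D1:**
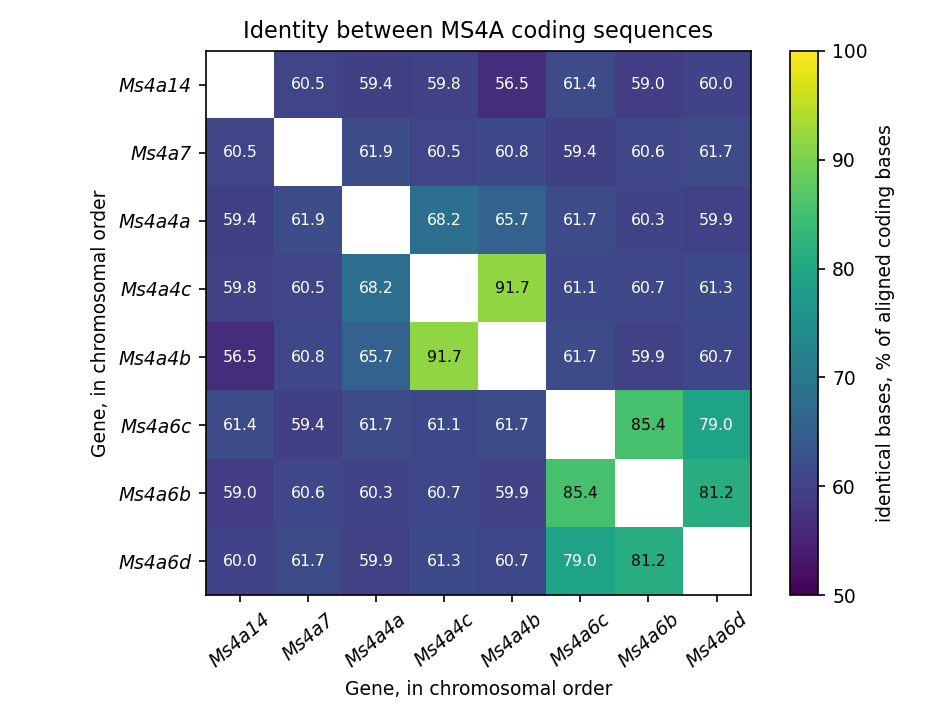
Percent identity of aligned coding bases for each pair of the 8 members, with genes in chromosomal order on both axes. Ms4a4c with Ms4a4b (91.7%) and the 3 Ms4a6 genes (79.0 to 85.4%) form the 2 sets of close copies.

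The sequence before the RefSeq start was closest in pairs drawn from the same sets. RefSeq promoter windows (GRCm38.p6) were found for 7 of the 8 members, with 2 for Ms4a7, and the 250 bases before each start were compared. The RefSeq start was within 35 bases of the outer end of the GENCODE gene for Ms4a14, Ms4a4a, Ms4a4b, Ms4a6c and the first window of Ms4a7. It lay 2891 bases inside the gene for Ms4a4c, 2047 inside for Ms4a6b and 1451 inside for the second window of Ms4a7. The windows of Ms4a6c and Ms4a6b were identical at 85.1% of 175 aligned bases with a shared run of 48 bases, and those of Ms4a4c and Ms4a4b at 78.9% of 232 aligned bases with a shared run of 20. All other pairs were between 55.4 and 66.1%, with shared runs of 7 to 9 bases. Shown first are Ms4a14, the member with the largest difference between the groups, and Ms4a4a, the member that was higher with fucoidan; then the 2 close pairs. The stretches are chr19:11314455-11314704 on the minus strand for Ms4a14, and, on the plus strand, chr19:11375238-11375487 for Ms4a4a, chr19:11407411-11407660 for Ms4a4c, chr19:11443308-11443552 for Ms4a4b, chr19:11469118-11469365 for Ms4a6c and chr19:11518309-11518452 for Ms4a6b. Each ends at the RefSeq start or, for Ms4a4b, Ms4a6c and Ms4a6b, before the first annotated exon base in the window. This leaves out 5, 2 and 106 bases that were part of the comparison, and capitals mark the motif matches described next.
Ms4a14: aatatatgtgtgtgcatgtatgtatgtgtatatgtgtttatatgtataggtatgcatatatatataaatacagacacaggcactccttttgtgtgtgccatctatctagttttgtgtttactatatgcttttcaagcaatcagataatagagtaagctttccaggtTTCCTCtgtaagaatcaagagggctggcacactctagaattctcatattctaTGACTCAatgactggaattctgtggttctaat
Ms4a4a: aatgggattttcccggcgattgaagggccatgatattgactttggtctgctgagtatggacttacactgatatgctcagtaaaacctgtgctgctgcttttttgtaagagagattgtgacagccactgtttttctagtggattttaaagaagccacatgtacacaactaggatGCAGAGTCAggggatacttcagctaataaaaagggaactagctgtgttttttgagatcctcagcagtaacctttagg
Ms4a4c: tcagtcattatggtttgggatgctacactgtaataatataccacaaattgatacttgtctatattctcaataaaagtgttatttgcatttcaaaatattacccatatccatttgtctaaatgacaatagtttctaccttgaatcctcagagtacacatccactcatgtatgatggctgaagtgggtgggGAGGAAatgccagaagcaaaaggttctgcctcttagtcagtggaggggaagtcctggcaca
Ms4a4b: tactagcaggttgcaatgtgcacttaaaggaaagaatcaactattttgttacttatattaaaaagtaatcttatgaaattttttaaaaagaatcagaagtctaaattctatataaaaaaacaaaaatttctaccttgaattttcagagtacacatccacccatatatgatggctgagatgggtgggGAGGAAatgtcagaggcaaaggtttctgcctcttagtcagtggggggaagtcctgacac
Ms4a6c: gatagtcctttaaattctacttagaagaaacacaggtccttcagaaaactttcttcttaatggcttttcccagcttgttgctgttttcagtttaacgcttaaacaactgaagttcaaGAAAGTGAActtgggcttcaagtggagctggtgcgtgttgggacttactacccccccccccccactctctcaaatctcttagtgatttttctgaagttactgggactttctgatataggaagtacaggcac
Ms4a6b: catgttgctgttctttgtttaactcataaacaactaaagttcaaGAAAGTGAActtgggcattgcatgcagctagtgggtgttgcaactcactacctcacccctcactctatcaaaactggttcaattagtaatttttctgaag

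The 250 bases before each start were searched on both strands for 9 short motifs, and the same search was made in all 32841 promoter windows of the RefSeq table. In Ms4a14, an AP-1 motif (TGANTCA, in 6.75% of all windows) lay 32 to 26 bases before the start and a PU.1-like ETS motif (GAGGAA, 23.3% of windows) 84 to 79 bases before it. The same ETS motif lay 61 to 56 bases before the start of Ms4a4c and 64 to 59 before that of Ms4a4b. Ms4a6c and Ms4a6b shared the letters of an interferon-regulatory-factor-like motif (GAAANNGAA, 7.13% of windows), 133 to 125 and 206 to 198 bases before their starts. That motif was added after the windows had been seen, and it is contained in the longer interferon response element core, which has 1 more A at its end (2.98% of windows). Ms4a4a held 1 match, to the antioxidant response element TGACNNNGC (10.2% of windows), 77 to 69 bases before the start. The first window of Ms4a7 held a STAT6 motif (TTC and GAA with 4 bases between them, 5.85% of windows) 13 to 4 bases before the start and GAAANNGAA at 71 to 63. Its second window held TGANTCA at 81 to 75 and GAAANNGAA at 148 to 140 bases before the start. No member window held the interferon response element core, the GAS motif TTCNNNGAA (7.02% of windows), the C/EBP motif TTGCNNAA (9.57%) or the MAF motif TGCTGAC (3.81%). A match describes the letters only, and its absence says nothing of the factor.

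Together the 8 members were abundant and lower with fucoidan. Their summed level was 1156, 1056 and 898 FPKM in L-OHP replicates 1, 2 and 3 and 621, 598 and 715 FPKM in L-OHP+FUC replicates 1, 2 and 3. The lowest L-OHP library was above the highest L-OHP+FUC library, and the sum was 0.289 to 0.371% of all FPKM of a library in L-OHP and 0.185 to 0.225% in L-OHP+FUC. Of the 8 members, 7 passed the filter of at least 0.5 FPKM in at least 3 libraries, and Ms4a4b did not. In a limma fit on log2(FPKM + 1) over 12084 genes, 6 of the 7 had an adjusted p under 0.05, with 5 lower and 1 higher in L-OHP+FUC. Over all tested genes 27.0% were called, 19.3% as lower and 7.67% as higher. The libraries of the groups did not overlap for any of the 8 members, which were lower in 7 and higher in 1. Over all tested genes the groups' ranges were apart in the same way for 30.9% as lower and 16.1% as higher. The median log2 difference of the 7 tested members was -0.83, beside -0.10 over all tested genes. The authors' deposited table marks 4 of the 8 as significant (Ms4a14, Ms4a4b, Ms4a4c and Ms4a6b). Of all its 55401 rows 2.65% are marked, but only 12084 of these rows passed the expression filter, so the shares have unlike bases. The marked members had deposited ratios of L-OHP+FUC to L-OHP of 0.144 to 0.48, and the unmarked members 0.559 to 1.72. As the members were chosen on this contrast, these counts describe the choice.

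**Figure D2:**
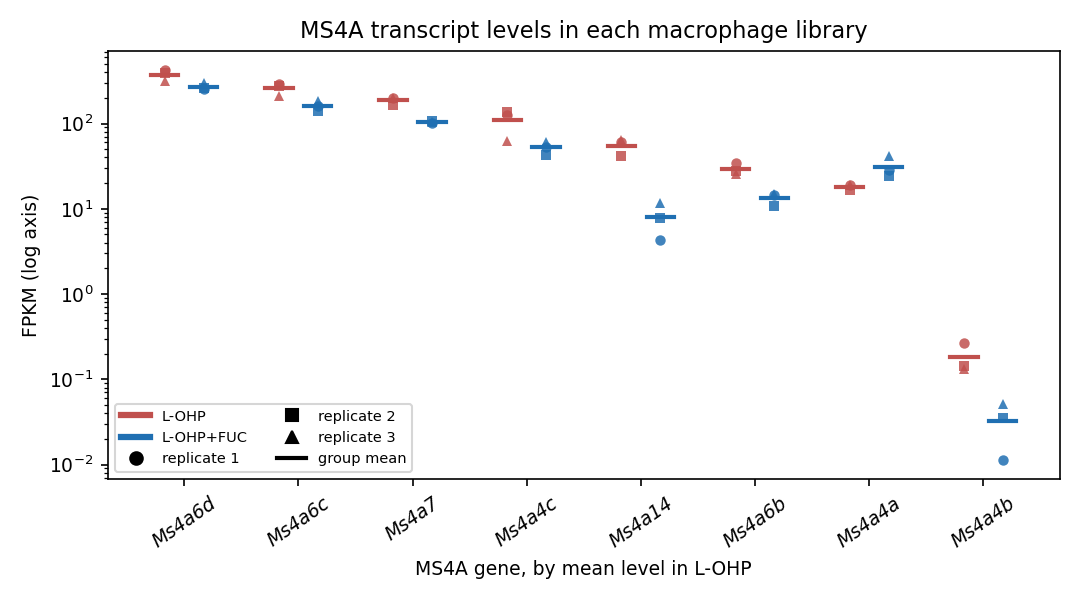
FPKM of each member on a log axis, with 1 point per library (3 L-OHP, 3 L-OHP+FUC) and a bar at the group mean. Points of the groups do not overlap for any member, Ms4a4a alone is higher in L-OHP+FUC, and Ms4a4b lies below 0.3 FPKM in every library.

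Ms4a14 had the largest difference of the 8. Its level was 60.2, 41.9 and 63.6 FPKM in L-OHP and 4.34, 7.83 and 11.7 FPKM in L-OHP+FUC, in the order of the replicates. All 3 L-OHP libraries were above 40 FPKM and all 3 with fucoidan were below 12, although the latter spread widely among themselves. The means were 55.2 ± 11.7 and 7.97 ± 3.69 FPKM (SD, n = 3 each), a ratio of 6.93, and the log2 difference was -2.71 with a standard error of 0.32. Ms4a14 (ENSMUSG00000099398) spans chr19:11301249-11314454, and none of the 50-base words of its transcripts occurs in another MS4A gene, so its reads can be told from those of its relatives. Its share of the summed level of all members was 5.33% in L-OHP and 1.24% in L-OHP+FUC.

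Ms4a7 (ENSMUSG00000024672), the neighbour of Ms4a14 at a gap of 6.58 kb on the same strand (chr19:11321039-11336146), was the most even member within the L-OHP+FUC group. The L-OHP libraries held 199, 164 and 200 FPKM and the L-OHP+FUC libraries 102, 107 and 106. The means were 188 ± 20.6 and 105 ± 2.38 FPKM (SD, n = 3 each), and the log2 difference was -0.83 with a standard error of 0.11. The 3 fucoidan libraries differed from each other by less than 5 FPKM, while L-OHP replicate 2 was lower than the other two L-OHP libraries.

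Ms4a4a, the dectin-1 partner, was the one member with higher values after fucoidan. It measured 19.1, 16.7 and 18.9 FPKM in L-OHP and 28.5, 24.0 and 41.3 FPKM in L-OHP+FUC. Every fucoidan library was above every L-OHP library, and replicate 3 stood highest. The means were 18.2 ± 1.34 and 31.3 ± 8.99 FPKM (SD, n = 3 each), a ratio of 1.72, with a log2 difference of 0.71 and a standard error of 0.19. Ms4a4a (ENSMUSG00000101389) spans chr19:11375523-11392790, and it lies between Ms4a7 and Ms4a4c, both of which were lower.

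Ms4a4c (ENSMUSG00000024675, chr19:11404770-11427246) varied more among the L-OHP libraries, relative to its mean, than the other tested members. Its level was 128, 139 and 61.8 FPKM in L-OHP and 53.3, 43.2 and 60.9 FPKM in L-OHP+FUC. The groups were apart by less than 1 FPKM, because L-OHP replicate 3 was as low as the highest fucoidan library. The means were 109 ± 41.5 and 52.5 ± 8.87 FPKM (SD, n = 3 each), and the log2 difference was -0.97 with a standard error of 0.31. It was the one tested member without a call, and without L-OHP replicate 3 its log2 difference was -1.34.

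Ms4a4b (ENSMUSG00000056290, chr19:11443553-11467055), a protein first described in T cells, was near the limit of detection. It measured 0.265, 0.145 and 0.133 FPKM in L-OHP and 0.01135, 0.0349 and 0.0514 FPKM in L-OHP+FUC. At the depth implied by the values, 1 fragment on its longest transcript corresponds to 0.0113 to 0.0134 FPKM, so the lowest library holds about 1 fragment. Ms4a4c, identical to it at 91.7% of coding bases, was far more abundant. Of the 50-base words of the longest Ms4a4b transcript, 4.19% occur in another MS4A gene. Its values are therefore uncertain, and it has no fitted difference.

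The 3 Ms4a6 genes made up most of the MS4A RNA. Their joint level was 750, 695 and 554 FPKM in L-OHP and 433, 416 and 495 FPKM in L-OHP+FUC, with L-OHP replicate 3 nearest to the fucoidan libraries.

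Ms4a6d (ENSMUSG00000024679, chr19:11586604-11604849) was the most abundant member in both groups and had the smallest difference. It measured 423, 390 and 316 FPKM in L-OHP and 256, 263 and 297 FPKM in L-OHP+FUC. Of pairs across the groups, L-OHP replicate 3 and L-OHP+FUC replicate 3 lay closest to each other. The means were 376 ± 54.9 and 272 ± 22.0 FPKM (SD, n = 3 each), and the log2 difference was -0.46 with a standard error of 0.14.

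Ms4a6c (ENSMUSG00000079419, chr19:11469366-11482192) was second in abundance. It measured 293, 277 and 213 FPKM in L-OHP and 163, 142 and 183 FPKM in L-OHP+FUC. Again L-OHP replicate 3 was the lowest of its group and L-OHP+FUC replicate 3 the highest of its own. The means were 261 ± 42.6 and 163 ± 20.6 FPKM (SD, n = 3 each), and the log2 difference was -0.67 with a standard error of 0.16. The gene BE692007 on the opposite strand overlaps 12027 bases of the span of this gene, introns included. The longest transcripts of BE692007 and Ms4a6c are 4331 and 1841 bases, and the exon bases they share were not counted. The sources used here do not say whether fragments were assigned by strand, so reads of BE692007 and Ms4a6c may not be separable.

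Ms4a6b (ENSMUSG00000024677, chr19:11516512-11531256), whose protein has been described beside the receptor GITR in T cells, was the least abundant of the 3. It measured 34.5, 27.6 and 25.9 FPKM in L-OHP and 14.4, 10.8 and 14.7 FPKM in L-OHP+FUC. The lowest L-OHP library was above the highest fucoidan library by more than 10 FPKM. The means were 29.3 ± 4.58 and 13.3 ± 2.16 FPKM (SD, n = 3 each), a ratio of 2.20, and the log2 difference was -1.08 with a standard error of 0.15. Of the 50-base words of the longest transcripts of Ms4a6c, Ms4a6b and Ms4a6d, 6.08, 3.14 and 2.92% occur in another MS4A gene, and 8.48% for Ms4a4c. Some reads of these genes could thus be assigned to a relative, and the shares for their other transcripts were not counted.

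The order of the members by level was alike in the groups except that Ms4a14 and Ms4a4a exchanged places. In L-OHP the means ran Ms4a6d, Ms4a6c, Ms4a7, Ms4a4c, Ms4a14, Ms4a6b, Ms4a4a and Ms4a4b, and of neighbours in this order only Ms4a4c and Ms4a14 had overlapping libraries. In L-OHP+FUC the first 4 were the same, followed by Ms4a4a, Ms4a6b, Ms4a14 and Ms4a4b, and only Ms4a6b and Ms4a14 overlapped. Ms4a14 thus stood above Ms4a4a by mean in L-OHP and below it in L-OHP+FUC. Ms4a6d held 36.3% of the summed level in L-OHP and 42.2% in L-OHP+FUC, and Ms4a6c held 25.2% in both. Ms4a4a held 1.76% and 4.85%.

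Within a group, the libraries were not alike across the members. The deviation of a library from a gene's own mean over all 6 libraries, on the log2(FPKM + 1) scale, averaged 0.60, 0.41 and 0.28 over the tested members in L-OHP replicates 1, 2 and 3. It averaged -0.53, -0.57 and -0.19 in L-OHP+FUC. Replicate 3 of each group was thus nearest to the middle. Ms4a4c deviated by 0.79, 0.91 and -0.24 in the L-OHP libraries, and the mean of 30 interferon-stimulated genes deviated by 0.47, 0.59 and -0.08 in the same libraries. In L-OHP+FUC the values were -0.45, -0.75 and -0.26 for Ms4a4c and -0.31, -0.47 and -0.21 for the interferon-stimulated genes. Ms4a14 did not follow this order, with 1.50, 0.99 and 1.58 in L-OHP, and Ms4a7 had 0.51, 0.23 and 0.51. The part of the interferon-stimulated genes in the members' differences was not tested.

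**Figure D3:**
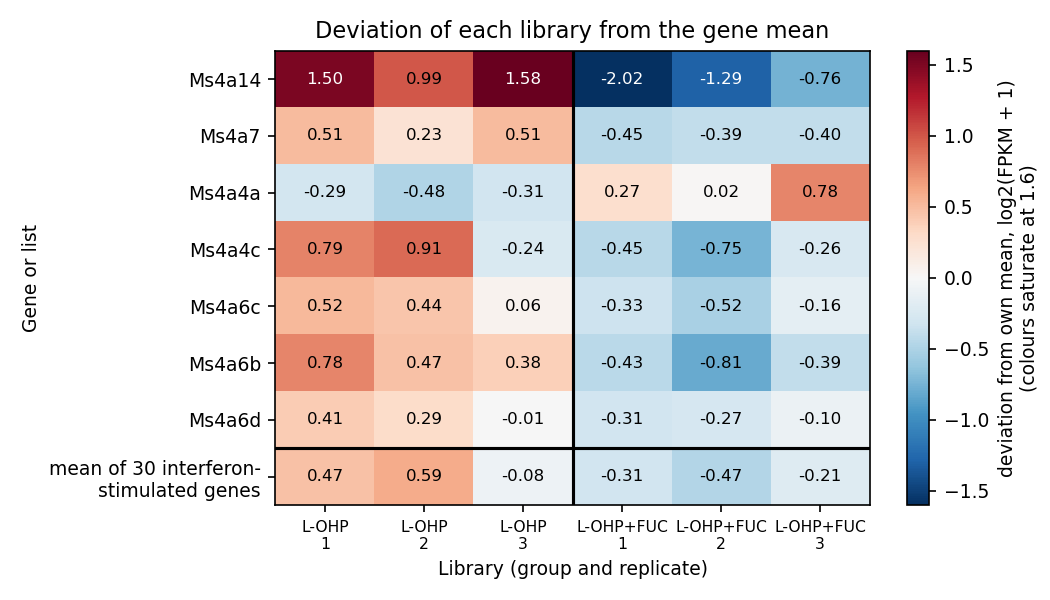
Deviation of each library from the gene's own mean on the log2(FPKM + 1) scale, with the 7 tested members and the mean of 30 interferon-stimulated genes in rows and the 6 libraries in columns. In L-OHP replicate 3, Ms4a4c (-0.24) and the interferon-stimulated genes (-0.08) are below their own means, while Ms4a14 (1.58) is at its highest.

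The other genes of the family were scarce. The table holds 21 genes named Ms4a, and of the 13 that are no members 7 were listed at 0 in all 6 libraries, among them Ms4a2 and Ms4a3, a gene of granulocyte precursors. Only Ms4a1, Ms4a4d and Ms4a8a exceeded 0.1 FPKM in any library, and none exceeded 0.587. Ms4a1, which encodes CD20, measured 0.103, 0.0869 and 0.0685 FPKM in L-OHP and 0.0874, 0.0655 and 0.0332 in L-OHP+FUC, with overlapping groups. Ms4a4d measured 0.348, 0.587 and 0.268 FPKM in L-OHP and 0.0358, 0 and 0.0616 in L-OHP+FUC, so its groups were apart, with fewer than 2 fragments implied in each fucoidan library. Ms4a8a overlapped between the groups, at 0.196 to 0.297 and 0.280 to 0.320 FPKM. The MS4A-related genes Tmem176a and Tmem176b, on chromosome 6, were the 2 tested genes of this list, and neither passed the test. Tmem176a averaged 19.3 and 15.2 FPKM (log2 difference -0.32, limma adjusted p = 0.101), and Tmem176b 57.7 and 47.6 (log2 difference -0.27, limma adjusted p = 0.25).

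Of 52 other annotated genes within 500 kb of the block, 13 were tested, of which 3 rose, 2 fell and 8 were not called, with a median log2 difference of -0.04. The share called was 38.5%, beside 27.0% over all tested genes (19.3% lower and 7.67% higher). With no filter on low values, 4 of the neighbours were called lower and 2 higher. Over all 52, the groups' ranges were apart for 9 as lower and 3 as higher, and 6 of those 9 were below the expression filter. Among the 13 tested neighbours, 3 were apart as lower and 3 as higher, beside 30.9% and 16.1% over all tested genes. BE692007, which overlaps Ms4a6c, measured 26.3, 23.7 and 22.0 FPKM in L-OHP and 11.6, 10.4 and 14.6 in L-OHP+FUC. It fell by 0.93 on the log2 scale (limma adjusted p = 0.00793). AW112010, a long non-coding transcript known to be induced by interferon, measured 181, 191 and 115 FPKM in L-OHP and 63.9, 60.1 and 71.3 in L-OHP+FUC, and fell by 1.27 (limma adjusted p = 0.00894). As for Ms4a4c, its L-OHP replicate 3 was the lowest of the group. Ccdc86 rose by 0.44 and Tmem109 by 0.52 (limma adjusted p = 0.0138 and 0.0206), and the fifth called neighbour was Prpf19, which rose by 0.27 (limma adjusted p = 0.0458). With values corrected for GC and length, the log2 difference of BE692007 was -0.54, and with a replicate block added the calls of BE692007 and AW112010 were lost (limma adjusted p = 0.067 and 0.0569). Calls were also lost without L-OHP+FUC replicate 1 for Ccdc86 (limma adjusted p = 0.0532) and under 5 of the alternatives for Tmem109 (limma adjusted p = 0.0507 to 0.0851). The Prpf19 call was lost in several settings, among them the replicate block and the fit without intensity trend.

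**Figure D4:**
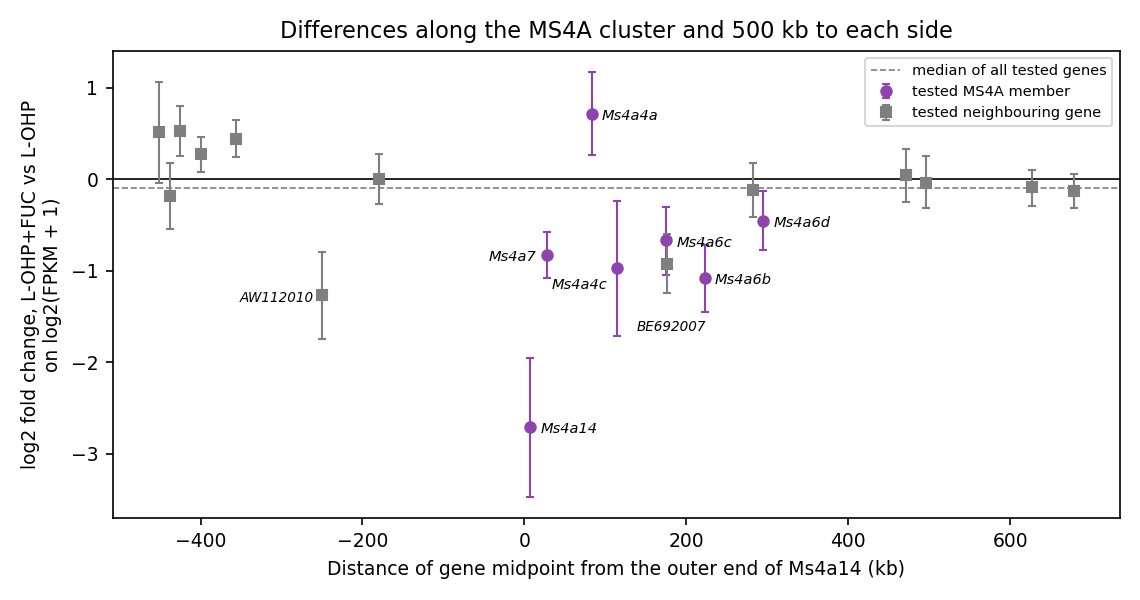
Log2 difference on the log2(FPKM + 1) scale, with its 95% interval, against the distance of the gene midpoint from the outer end of Ms4a14 in kb, for the 7 tested members (circles) and the 13 tested neighbours (squares). Ms4a4a (0.71) lies above 0 between members that lie below it, and of the neighbours AW112010 (-1.27) and BE692007 (-0.93) are lowest.

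Of the list of MS4A partners and their pathway, 12 of 13 genes were tested, of which 4 fell, 1 rose and 7 were not called, with a median log2 difference of -0.23. The share called was 41.7%, beside 27.0% over all tested genes. Clec7a, which encodes dectin-1, fell by 0.61 (limma adjusted p = 0.0185), while its partner Ms4a4a had higher values. Downstream of dectin-1, the adaptor gene Card9 fell by 0.59 (limma adjusted p = 0.0102) and the kinase gene Syk rose by 0.46 (limma adjusted p = 0.0122). Fcgr1, the high-affinity IgG receptor, fell by 0.69 (limma adjusted p = 0.0268). Trem2 and its adaptor gene Tyrobp had log2 differences of -0.06 and -0.17 and were not called (limma adjusted p = 0.783 and 0.39). Neither of the sheddase genes that act on TREM2 was called: Adam10 had -0.40 and Adam17 -0.03 (limma adjusted p = 0.0969 and 0.932). The Clec7a call was lost under 5 alternatives (limma adjusted p = 0.0529 to 0.129), with a log2 difference of -0.34 after the GC and length correction, and the Fcgr1 call under 7 (0.0521 to 0.0932). The Syk call was lost without L-OHP+FUC replicate 1 or 2 (limma adjusted p = 0.0501 and 0.0561).

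Further lists hold genes of programmes in which MS4A genes of macrophages have been described. Of the resident-like macrophage genes, 15 of 20 were tested, with 3 lower, 1 higher and 11 not called and a median of -0.28. At 26.7% their share called was near the 27.0% over all tested genes, so the genes named next do not set the list apart. Mertk, a receptor for dying cells, fell by 0.74 and the transcription factor gene Maf by 0.84, while the chemokine gene Pf4 rose by 0.73 (limma adjusted p = 0.00432, 0.0122 and 0.00888). The Maf call was lost with the GC and length correction and replicate block (limma adjusted p = 0.0604). Timd4 fell by 0.52 (limma adjusted p = 0.0249), a call lost under 7 alternatives (0.0537 to 0.0827), and its log2 difference was -1.27 with a pseudocount of 0.1 and -0.29 with quantile normalization. Of the alternative activation genes only 2 of 16 were tested, and Il4ra rose by 0.38 (limma adjusted p = 0.0353), a call lost under 8 alternatives (0.0524 to 0.115). Of the glucocorticoid targets, 9 of 10 were tested, with 2 higher, 2 lower and 5 not called and a median of -0.01. Their share called was 44.4%, beside 27.0% over all tested genes. Cdkn1c rose by 0.99 and Errfi1 by 0.32, and Tsc22d3, which encodes GILZ, fell by 0.79 and Sesn1 by 0.91 (limma adjusted p = 0.00433, 0.0442, 0.0119 and 0.0175). The Errfi1 call was lost under 8 alternatives (0.057 to 0.138), with a log2 difference of 0.52 under quantile normalization, and the Sesn1 call under 3 (0.057 to 0.0638).

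Of the interferon-stimulated genes, 30 of 31 were tested, of which 13 fell, none rose and 17 were not called, with a median log2 difference of -0.63. The share called, all of it lower, was 43.3%, beside 19.3% called lower over all tested genes. The DNA sensor family gene Ifi204 fell by 1.22, Xaf1 by 1.01, the signalling gene Stat2 by 1.16 and the ADP-ribosyltransferase gene Parp14 by 1.09 (limma adjusted p = 0.00695, 0.00883, 0.0111 and 0.0119). The Parp14 call was lost with the GC and length correction and replicate block (limma adjusted p = 0.0746). With the replicate block, 6 of the list (20.0%) were called, all lower. Over all tested genes 19.2% were then called in either direction, 1762 of 12084 as lower. With the GC and length correction and replicate block, 3 of the list (10.0%) were called, all lower. Over all tested genes 12.1% were then called in either direction, 809 of 12074 as lower. Without L-OHP replicate 3, the lowest L-OHP library for Ms4a4c, 21 of the list (70.0%) were called, all lower. Over all tested genes 18.1% were then called in either direction, 1571 of 12084 as lower. Without L-OHP+FUC replicate 1 the count was 4 (13.3%), all lower. Over all tested genes it was 10.1% in either direction, with 917 of 12084 as lower.

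Genes with a profile like that of the members were found by the root mean square difference, over the 6 libraries on the log2 scale, between a gene's centred values and the mean centred profile of the 7 tested members. The nearest protein-coding genes outside the family were the chemokine gene Ccl8 (0.071), Tgs1 (0.073), Stxbp3 (0.074), Pin4 (0.075) and the ubiquitin ligase gene Rnf213 (0.080). Ccl8 measured 1.48, 1.47 and 1.06 FPKM in L-OHP and 0.212, 0.250 and 0.480 in L-OHP+FUC. At these low levels the pseudocount of 1 shrinks its difference: the ratio of its means was 4.27, but its fitted log2 difference was -0.83. Its place in this order thus rests on the scale, and the order was not tested with another pseudocount. Among the members themselves, Ms4a6c (0.13), Ms4a6b (0.16) and Ms4a7 (0.17) were nearest to the mean profile, followed by Ms4a6d (0.22) and Ms4a4c (0.32). Ms4a4a (0.80) and Ms4a14 (0.99) were farthest, the first by its direction and the second by its size.

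The GC content of the members was 37.2 to 44.1%, against a median of 49.5% over tested genes. With values corrected for GC and length, the log2 difference was -2.47 for Ms4a14, 1.03 for Ms4a4a, -0.74 for Ms4a6b, -0.64 for Ms4a4c, -0.60 for Ms4a7, -0.46 for Ms4a6c and -0.25 for Ms4a6d. The correction also moved the median of all genes from -0.10 to 0.01. Under it Ms4a14, Ms4a4a, Ms4a6b and Ms4a7 were called, and Ms4a6c and Ms4a6d were not. Each of the 7 kept its direction in all 15 alternatives. Only rescaling between libraries and the GC and length correction could have reversed a direction, as the groups did not overlap for any member. Ms4a14, Ms4a7 and Ms4a6b were called in all 15, Ms4a4a in 10, Ms4a6c in 8, Ms4a6d in 5 and Ms4a4c in 2.

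**Figure D5:**
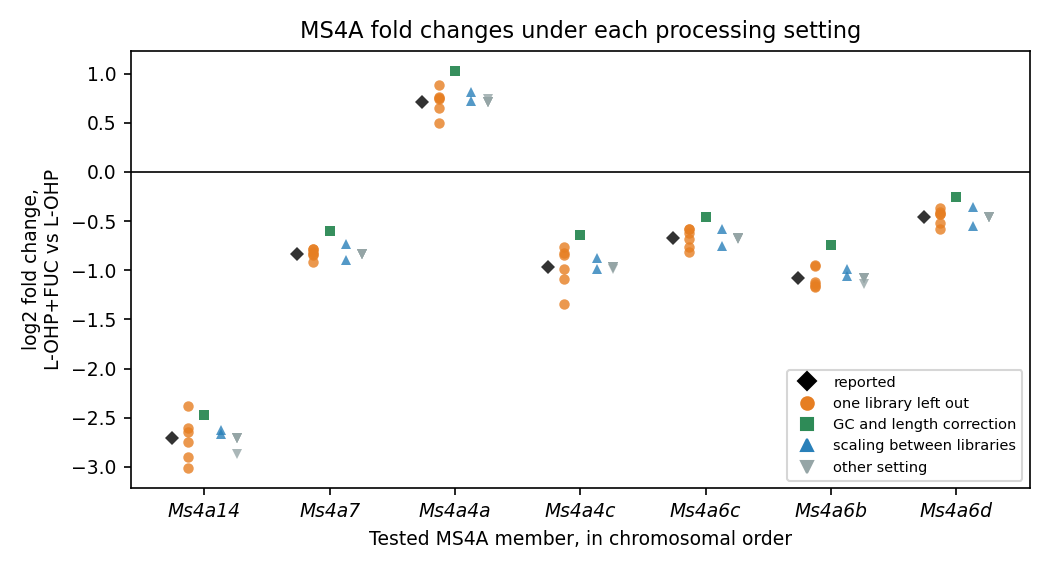
Log2 difference between the groups on the log2 scale for each of the 7 tested members, under the main analysis and the 15 alternatives, with 1 point per setting. All values of a gene lie on the same side of 0, from -3.01 to -2.38 for Ms4a14 and from 0.50 to 1.03 for Ms4a4a.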

How the data were processed

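RNA of 6 libraries was measured, 3 per group. The table gives FPKM values deposited by the authors, with their fold ratio, log2 ratio and p-value or q-value columns, per the file headers. Their fold column was used for description only. The submitters' processing notes name bcl2fastq 2.0, HISAT2, StringTie, DESeq2, limma and mm10. What each was used for, which annotation release was taken and whether strand was used: not given in the sources used here.

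Deposited FPKM values of 0.0001, the stand-in for 0, were set to 0. Gene positions and transcripts came from GENCODE M21 (GRCm38), which matched 99.5% of gene IDs, and promoters from RefSeq. Depth implied by the values was 15.7 to 18.6 M fragments. Without deposited counts no counting interval is given. The 12084 genes that reached 0.5 FPKM in 3 or more libraries were fitted with limma 3.58.1 (R 4.3.3, intensity trend, group as the only term) on log2(FPKM + 1), so fold changes of low genes are understated. P-values are two-sided and Benjamini-Hochberg adjusted over all tested genes with a threshold of 0.05. The fit was also run on simulated data with independent normal errors. These held no GC, length or batch effects, so that run does not bear on such effects in the real libraries.

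Members, lists and motifs were chosen with earlier results of these data known, except where a later choice is stated. Named genes were all members, family genes tested or above 0.1 FPKM, up to 4 called genes with the smallest p per list or among neighbours, and the 5 nearest profiles. Other genes were named for their role in the pathway, as cell type markers or to complete a count, after their values were seen. Alternatives were another pseudocount, filters, scalings, a GC and length correction, a replicate block and leaving out each library.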

Additional observations from a re-analysis of the deposited data

How the results depend on the processing

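Over the 15 alternatives, all 105 values of the 7 tested members kept their direction. Of these, 97 moved by less than 1 SD of the replicates, and the others were GC and length corrected values. The filters, the replicate block and the fit without intensity trend cannot change a member's log2 difference in this balanced design. As the groups' libraries did not overlap, another pseudocount or leaving out 1 library could not reverse a direction. Only the scalings and the GC and length correction could have done so. The share of genes called changed with the setting. Of 12084 genes 3262 were called (27.0%, 927 higher, 2335 lower). With no filter 2081 of 24828 genes were called (8.38%), and with a mean of at least 5 FPKM 1720 of 5917 (29.1%). With GC correction and replicate block 1465 of 12074 were called (12.1%). When 1 library was left out, 1101 to 3377 of 12084 were called (9.11 to 27.9%). The split was 1417 higher and 1825 lower with median ratio rescaling, 1565 and 1359 with quantile normalization, and 1390 and 1437 with the GC correction. These moved the median of all genes from -0.10 to -0.03, 0.03 and 0.01.

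Of the members 6 of 7 were called, 3 of 8 with no filter and 4 of 7 with the replicate block. With 1 library left out 3 to 6 of 7 were called (3 without L-OHP replicate 1 or L-OHP+FUC replicate 1). With no filter, 1 of 8 other MS4A genes (Ms4a4d) was called, 3 of 13 partners, 0 of 14 alternative activation genes and 6 of 30 interferon-stimulated genes. The share over all genes was then 8.38%. With the replicate block 3 of 12 partners, 0 of 2 alternative activation genes, 6 of 30 interferon-stimulated genes and 3 of 13 neighbours were called, beside 19.2% of all tested genes. With GC correction alone 3 of 12 partners were called, beside 23.4% of all tested genes. With GC correction and replicate block the calls were 2 of 12 partners, 2 of 15 resident-like genes and 0 of 2 alternative activation genes. The same setting called 3 of 30 interferon-stimulated genes and 2 of 13 neighbours, beside 12.1% of all tested genes. Leaving out 1 library gave 0 to 1 of 2 other MS4A genes, 1 to 5 of 12 partners and 3 to 4 of 15 resident-like genes. It also gave 0 to 1 of 2 alternative activation genes and 2 to 4 of 9 glucocorticoid targets. The counts were 4 to 21 of 30 interferon-stimulated genes and 2 to 5 of 13 neighbours, beside 9.11 to 27.9% of all tested genes. The cause of these changes was not tested. Whether the replicate numbers pair the libraries is not given in the labels. Deviations of same-numbered libraries correlated at -0.037, -0.071 and 0.083, and those of differently numbered libraries at -0.152 to 0.161. With 3 libraries per group these values cannot show whether the libraries were prepared in pairs. Counts were not used here, so values near 1 fragment, as in Ms4a4b and Ms4a4d, have no interval.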
